A study of Mus musculus with 10 samples.

Results

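The genes described here encode Fc receptors and Fc receptor-like proteins of B cells. They were taken by name, and all 5 (Fcrl1, Fcrl5, Fcrla, Fcer2a and Fcgr2b) were present among the 14450 listed genes. Their transcripts were read in 5 libraries of Chat+ and 5 libraries of Chat- cells, all of them mature B cells that flow cytometry separated from the bone marrow of Chat-GFP mice at steady state. Both groups thus carry the reporter, in which green fluorescence marks use of the Chat locus, and differ in whether it was on. Chat encodes the enzyme that makes acetylcholine. The labels used here give no treatment and no age, and they leave out how many animals stand behind the 5 libraries of a group. All p-values therefore measure only the spread between these libraries, which may be technical.

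Fc receptors bind the constant part of an antibody and pass its presence on to the cell that carries them. On B cells, Fcgr2b (FcγRIIB) is the inhibitory receptor for IgG. When it is crosslinked with the antigen receptor it recruits the lipid phosphatase SHIP-1 and dampens the signal. Fcer2a encodes CD23, the low-affinity receptor for IgE, which is a C-type lectin rather than an immunoglobulin-fold protein and is a surface marker of follicular B cells. The Fc receptor-like genes are relatives of the classical Fc receptors. In the mouse, Fcrl5 is carried mainly by marginal zone and B-1 cells and can both inhibit and support antigen receptor signalling, Fcrl1 has activating tail motifs and is found across the B lineage, and Fcrla stays inside the cell, where it binds immunoglobulin in the endoplasmic reticulum.

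Values are in CPM (counts per 1000000 counts), and each member rested on an estimated 239 to 29103 reads per library. From the smallest steps in the values, 1 CPM stood for an estimated 21.5 to 30.1 reads in a library. Chat itself lay at 31.1 to 111 CPM in Chat+ cells, against 1.17 to 19.7 CPM in Chat-. Among B cell markers, 7 of 7 were listed, with a summed level of 9573 to 10121 CPM in Chat+ cells, against 9955 to 10414 CPM in Chat-. Of 8 markers of T and NK cells 1 was listed, and it did not exceed 1.27 CPM in any library. The library Chat- replicate 4 stood apart, with 11.9% of its CPM in mitochondrial transcripts against 2.27% to 3.85% in the others. Its summed monocyte and macrophage markers (11 of 12 listed) were 226 CPM, against 41.2 to 59.6 CPM in the other Chat- libraries and 59.8 to 113 CPM in the Chat+ libraries.

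In genome order, 4 of the 5 genes sit in family clusters. Fcrl1 (ENSMUSG00000059994) lies on chromosome 3 at 87376387 to 87402934 and Fcrl5 (ENSMUSG00000048031) follows it at 87435773 to 87500678, both on the plus strand of GRCm38, with start sites 59.4 kb apart. Fcrla (ENSMUSG00000038421) occupies 170917576 to 170927583 of chromosome 1 and Fcgr2b (ENSMUSG00000026656) 170958617 to 170976547, both on the minus strand. Fcer2a (ENSMUSG00000005540), also on the minus strand, stands alone at 3681737 to 3694175 of chromosome 8. All are protein coding. All 5 matched a RefSeq entry. Start regions are shown for the neighbours Fcrl1 and Fcrl5, whose log2 fold changes were 0.01 and 1.51, and for Fcer2a, because Fcer2a has several annotated starts that a gene-level value adds together. Each window runs from 250 bases before to 50 bases after a start site in RefSeq (GRCm38.p6), 5′ to 3′ on the strand of the gene. Capitals mark matches, on either strand, to 5 motifs. These were the octamer ATGCAAAT, the STAT6 motif (TTC and GAA with 4 bases between them), the EBF1 motif (TCCC and GGGA with 2 bases between them), the PU.1 core GAGGAA and the TATA motif TATAAA, and no match overlapped another.
Fcrl1, chr3:87376137-87376436, plus strand: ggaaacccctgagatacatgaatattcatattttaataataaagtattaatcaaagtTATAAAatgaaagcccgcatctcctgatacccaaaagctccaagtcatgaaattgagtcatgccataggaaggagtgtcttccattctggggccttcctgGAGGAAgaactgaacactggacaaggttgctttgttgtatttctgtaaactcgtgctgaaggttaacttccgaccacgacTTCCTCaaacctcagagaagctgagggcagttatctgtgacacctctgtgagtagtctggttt
Fcrl5, chr3:87435532-87435831, plus strand: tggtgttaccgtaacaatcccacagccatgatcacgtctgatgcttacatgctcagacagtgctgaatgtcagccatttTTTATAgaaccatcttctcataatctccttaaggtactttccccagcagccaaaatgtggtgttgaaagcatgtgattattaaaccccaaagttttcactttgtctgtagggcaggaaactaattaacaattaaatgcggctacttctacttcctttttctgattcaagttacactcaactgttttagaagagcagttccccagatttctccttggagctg
Fcer2a, first start, chr8:3694125-3694424, minus strand: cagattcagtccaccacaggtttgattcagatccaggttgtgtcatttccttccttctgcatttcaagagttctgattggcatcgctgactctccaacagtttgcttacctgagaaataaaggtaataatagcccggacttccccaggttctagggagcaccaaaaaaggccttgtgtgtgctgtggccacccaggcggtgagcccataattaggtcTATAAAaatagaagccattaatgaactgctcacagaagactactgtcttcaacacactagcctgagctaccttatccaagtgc
Fcer2a, second start, chr8:3690812-3691111, minus strand: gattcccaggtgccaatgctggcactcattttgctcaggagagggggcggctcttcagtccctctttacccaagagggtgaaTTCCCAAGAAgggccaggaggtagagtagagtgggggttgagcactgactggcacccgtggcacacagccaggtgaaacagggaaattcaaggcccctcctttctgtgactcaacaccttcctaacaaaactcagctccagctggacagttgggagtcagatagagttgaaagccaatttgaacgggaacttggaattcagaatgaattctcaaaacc

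The Fcrl1 window held the PU.1 core at 93 and at 13 bases before the start site, and the Fcrl5 window held none. Across all 32817 windows of this length 28.3% held that core. Fcrla held it once, at 37 bases before its start. A TATA motif stood 33 bases before the first start of Fcer2a, 193 before that of Fcrl1, 171 before that of Fcrl5 and 27 after that of Fcrla, and 13.6% of all windows held one. The second start of Fcer2a had a STAT6 match, TTCCCAAGAA, beginning 168 bases before it, and 6.94% of all windows held such a match. STAT6 is the transcription factor through which interleukin 4 raises CD23. The third start window of Fcer2a and the window of Fcgr2b held no match. The octamer and the EBF1 motif were found in none of the members' windows, and in 1.74% and 0.905% of all windows. These matches describe letters in a window and show neither binding nor its absence.

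Of the 5 genes, Fcrl5 averaged higher and Fcer2a lower in Chat+ than in Chat- cells. The averages of Fcrl1, Fcrla and Fcgr2b were nearly equal in the groups. With limma and Benjamini-Hochberg adjustment over all 14450 genes, 0 of the 5 passed the threshold of 0.05, against 1 listed gene in all (0.00692%). At an unadjusted p under 0.05, 2 of the 5 were found, against 651 listed genes (4.51%), and the exact permutation test likewise gave 2 of the 5 against 794 listed genes (5.49%). None of the 5 had groups without overlap, against 206 listed genes (1.43%), of which 162 were higher in Chat+ (1.12% of those listed). The 5 were chosen with earlier results of these data known, so these counts do not test the set against all genes.

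**Figure D1:**
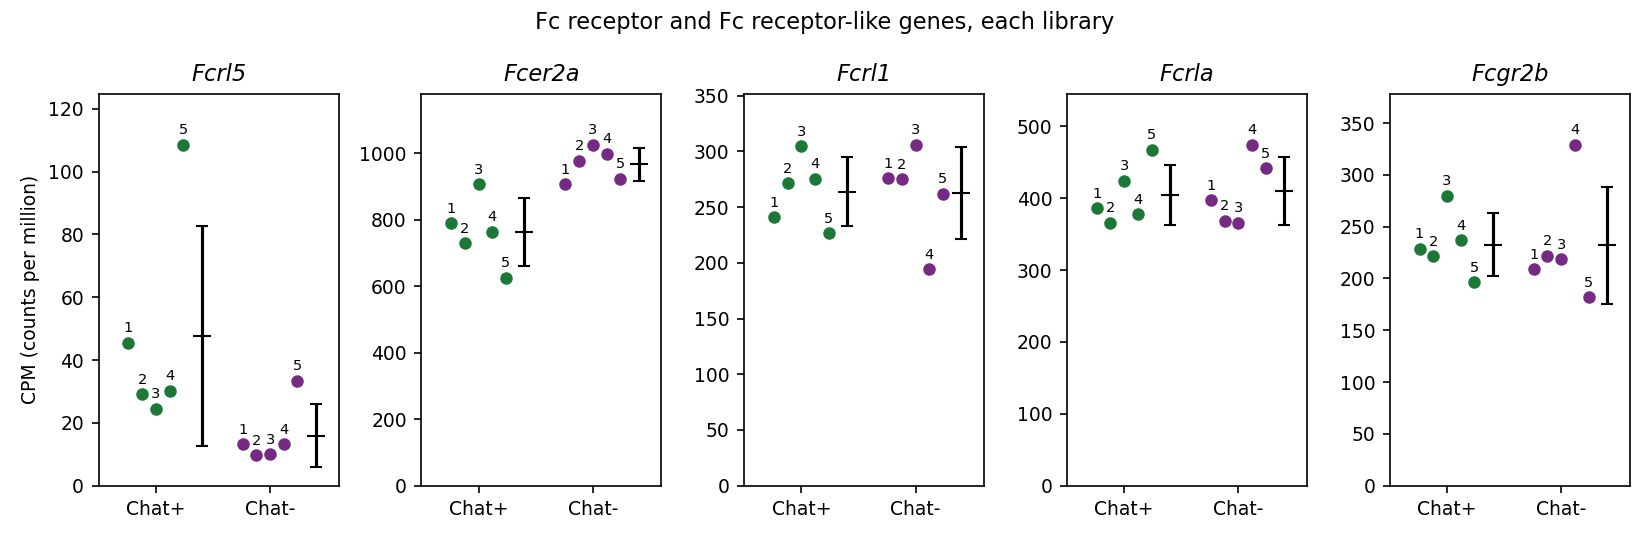
CPM (vertical axes, from 0, with a scale of their own for each gene) of the 5 genes in the 5 Chat+ and 5 Chat- libraries, numbered by replicate, with the mean and SD of each group in black. Replicate 5 has the highest Fcrl5 level in both groups, and the Fcer2a levels of Chat+ and Chat- touch at 906.4 and 905.8 CPM.

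Fcrl5 was measured in Chat+ at 45.6, 29.2, 24.6, 30.2 and 109 CPM in replicates 1 to 5, and in Chat- at 13.2, 9.69, 10.04, 13.2 and 33.5 CPM. All Chat+ libraries lay above 4 of the Chat- libraries, but Chat- replicate 5 reached into the Chat+ range. The means were 47.6 ± 35.0 CPM in Chat+ cells, against 15.9 ± 9.96 CPM in Chat- (n = 5 each, SD). On the log2 scale the difference was 1.51 ± 0.42 (SE), a fold of 2.84 with a 95% confidence interval of 1.51 to 5.33. It did not pass over all genes (limma, unadjusted p = 0.0035, adjusted p = 0.49). An exact two-sided permutation test gave p = 0.032. The smallest p it can give with 5 against 5 libraries is 0.0079, which 206 genes reached and which adjusts to 0.56, so no gene could pass it over all genes.

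The spread of Fcrl5 between libraries of the same group was wide. Its pooled within-group SD was 0.79 on the log2 scale, against a median of 0.29 over the 2121 listed genes within 0.5 log2 units of its mean level, and 97.9% of those genes had a smaller SD. With library quality weights, which count a deviating library less, Fcrl5 passed (log2 fold change 1.61 ± 0.30, SE, limma adjusted p = 0.025). It was then among 105 of the 14450 listed genes that passed, against 1 in the fit without weights. Leaving out Chat+ replicate 5 gave the smallest fold, 2.22, and leaving out Chat- replicate 5 the largest, 3.52, and neither passed (limma adjusted p = 0.63 and 0.30). Chat was measured in replicates 1 to 5 at 79.6, 71.9, 111, 59.9 and 31.1 CPM in Chat+ and at 7.93, 5.15, 19.7, 3.54 and 1.17 CPM in Chat-. Replicate 5, highest in Fcrl5, was thus lowest in Chat in both groups, but the other libraries did not keep to that order. Chat+ replicate 1, for example, came next to the highest in both genes.

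Of the markers of marginal zone and B-1 cells, the cells in which mouse Fcrl5 is best known, most but not all averaged higher in Chat+ cells. Their summed level (11 of 11 listed) was 995 to 1175 CPM in Chat+ cells, against 860 to 964 CPM in Chat-, highest in Chat+ replicate 5 and without overlap between the groups. Abundant genes weigh most in this sum. Plac8 alone had 264 ± 50.2 CPM in Chat+ cells, against 168 ± 28.6 CPM in Chat- (n = 5 each, SD). In log2 fold change 8 of these 11 were above 0 and 3 below, where 57.0% of all listed genes were above 0. They ran from -0.65 to 2.19, with a median of 0.52 beside 0.04 over all listed genes. None passed (limma), while 5 had an unadjusted p under 0.05, against 4.51% of all listed genes. The 3 with the smallest p, all among the 8 above 0, were Zbtb32, Bhlhe41 and Plac8, with log2 fold changes of 2.19, 1.33 and 0.65. Plasma cell markers (5 of 5 listed) summed to 102 to 317 CPM in Chat+, again highest in replicate 5, and to 98.6 to 133 CPM in Chat-. Their part in the Fcrl5 result was not tested. In pooled cells a different share of one cell type and a different amount of RNA per cell cannot be told apart.

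The genes whose profile over the 10 libraries was most like that of Fcrl5 were Bhlhe41, Gbp7 and Csf2rb. Likeness was the root mean square difference between log2 values, each gene centred on its own mean, among 8430 named genes with a mean of at least 10 CPM. It was 0.36 for Bhlhe41, 0.40 for Gbp7 and 0.41 for Csf2rb, with a median of 1.07 over all genes compared and a spread of Fcrl5 about its own mean of 1.03. Bhlhe41, one of the markers above and a transcription factor gene on which the B-1a population depends, stood at 50.8, 37.6, 27.6, 33.3 and 75.9 CPM in Chat+ cells, against 18.0, 15.6, 11.1, 17.6 and 23.99 CPM in Chat-, replicates 1 to 5. Csf2rb, the shared chain of the receptors for interleukin 3, interleukin 5 and GM-CSF, had 52.4 to 120.0 CPM in Chat+ cells, against 23.7 to 47.1 CPM in Chat-. Gbp7, an interferon-inducible GTPase gene, had 29.9 to 149.7 CPM in Chat+ cells, against 20.8 to 64.1 CPM in Chat-. For all 3, replicate 5 was the highest library of its group. Bhlhe41 and Csf2rb had no overlap between groups, as for 1.12% of all listed genes with Chat+ higher, whereas Gbp7 did overlap. None of the 3 passed (limma adjusted p = 0.23 for Bhlhe41, 0.28 for Csf2rb and 0.999 for Gbp7). They were picked for likeness to Fcrl5 in these same libraries, so traits shared with it largely follow from that choice.

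**Figure D2:**
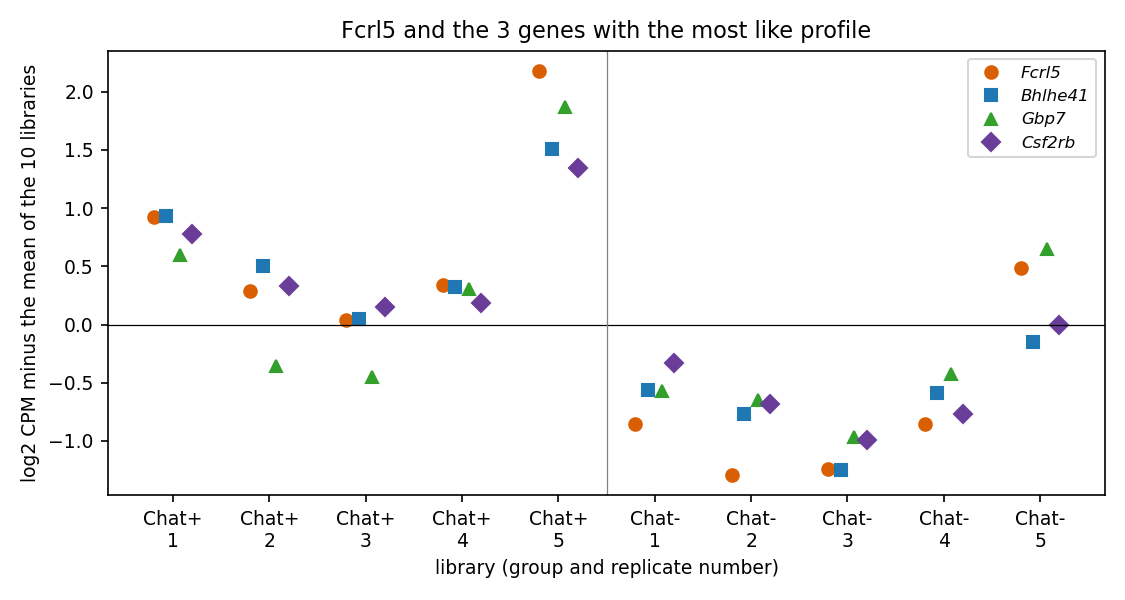
Log2 CPM of Fcrl5, Bhlhe41, Gbp7 and Csf2rb in each library (horizontal axis), as the difference from the mean of that gene over the 10 libraries (vertical axis). All 4 genes stand highest in Chat+ replicate 5, and among the Chat- libraries highest in replicate 5. Bhlhe41, Gbp7 and Csf2rb were picked for their likeness to Fcrl5 in these same libraries.

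Fcer2a, the most abundant of the 5 genes per kb of transcript, had the lower average in Chat+ cells. It was measured in Chat+ at 789.8, 729, 906.4, 764 and 625 CPM in replicates 1 to 5, and in Chat- at 905.8, 977, 1025, 999 and 923 CPM. The groups touched only at Chat+ replicate 3 and Chat- replicate 1, which differed by less than 1 CPM. The means were 763 ± 102 CPM and 966 ± 50.3 CPM (SD, n = 5 each). The log2 difference was -0.35 ± 0.11 (SE), a fold of 0.785 with a 95% confidence interval of 0.664 to 0.928. It did not pass over all genes (limma, unadjusted p = 0.0082, adjusted p = 0.73). The exact two-sided permutation test gave p = 0.016.

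In Chat+ replicate 5 had the lowest Fcer2a and the highest Fcrl5 level, and replicate 3 the reverse. In Chat- it was otherwise, with Fcer2a lowest in replicate 1 and highest in replicate 3, and Fcrl5 lowest in replicate 2 and highest in replicate 5. Taken as a share of Fcer2a CPM in the same library, Fcrl5 was 2.71% to 17.4% in Chat+ and 0.979% to 3.62% in Chat-. Chat- replicate 5 again lay within the Chat+ range. The genes most like Fcer2a in profile were Ifnar2, Cecr2 and Alkbh4, with root mean square differences of 0.098 each beside a median of 0.32 over all genes compared. Ifnar2, a chain of the type I interferon receptor, had 45.9 ± 5.64 CPM in Chat+ cells, against 54.2 ± 3.20 CPM in Chat- (n = 5 each, SD).

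Genes that act with CD23 were read as a list of 11, all listed, which includes its sheddase Adam10 and the interleukin 4 pathway. Of these, 6 had a log2 fold change above 0 and 5 below, where 57.0% of all listed genes were above 0. They ran from -0.16 to 0.50, with a median of 0.00 beside 0.04 over all listed genes. With limma 0 passed, against 0.00692% of all listed genes, and 0 had an unadjusted p under 0.05, against 4.51%. Counts this close to those shares say little about the list. The member with the smallest p was Stat6, at 253 ± 23.9 CPM in Chat+ cells, against 278 ± 17.3 CPM in Chat- (n = 5 each, SD). Il4ra, the interleukin 4 receptor chain, had 294 ± 18.8 and 335 ± 77.9 CPM. Markers of immature B cells, which carry little CD23, summed to 57.6 to 90.3 CPM in Chat+ cells, against 73.6 to 142 CPM in Chat- (5 of 7 listed). All 5 had a log2 fold change below 0, with a median of -0.37, where 57.0% of all listed genes were above 0. None of the 5 passed (limma), and 1, Rag1, had an unadjusted p under 0.05, against 4.51% of all listed genes. Rag1, at 1.05 ± 0.659 and 4.74 ± 1.92 CPM (n = 5 each, SD), had no overlap, as for 0.304% of all listed genes with Chat+ lower. The sum of marginal zone and B-1 markers, cells low in CD23, did not overlap between the groups and lay above in Chat+, as given earlier. Abundant genes weigh most in it, and 3 of the 11 genes had a log2 fold change below 0. The part of either set in the Fcer2a result was not tested.

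Fcgr2b had nearly equal means in the groups. It was measured in Chat+ at 228, 222, 279.6, 237 and 196 CPM in replicates 1 to 5, and in Chat- at 209, 222, 219, 329 and 182 CPM. The groups overlapped between 196 and 279.6 CPM, and the highest library was Chat- replicate 4, the one that stood apart. Without it the overlap ran from 196 to 222 CPM. The means were 233 ± 30.3 and 232 ± 56.5 CPM (SD, n = 5 each). The fold was 1.02 with a 95% confidence interval of 0.811 to 1.28 (limma adjusted p = 0.999). Without Chat- replicate 4 the log2 fold change moved from 0.02 to 0.16 ± 0.11 (SE, limma adjusted p = 0.84). That library also had the highest Fcgr1 level, 6.36 CPM, and the highest sum of monocyte and macrophage markers, cells that carry Fcgr2b as well. Their part in its Fcgr2b level was not tested.

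Part of the Fcgr2b transcript cannot be told from that of Fcgr3, the activating low-affinity IgG receptor of myeloid cells. Of the 31-base words in its transcripts 4.15% also occur in Fcgr3, and of those of Fcgr3 13.4% occur in Fcgr2b. The longest exact stretch they share spans 129 bases of the coding part, and its capitals mark the 27 bases that come from exon 4, after 102 bases of exon 3. In GENCODE M21 (GRCm38) it lies on the minus strand of chromosome 1, at 170966674 to 170968081 in Fcgr2b and at 171054167 to 171057792 in Fcgr3, intron included.
Fcgr2b and Fcgr3, shared stretch: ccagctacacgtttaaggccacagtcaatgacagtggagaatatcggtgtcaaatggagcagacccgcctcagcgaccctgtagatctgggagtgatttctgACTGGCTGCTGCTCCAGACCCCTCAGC

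Fcgr3 was low, at 2.72 ± 0.745 CPM in Chat+ cells, against 1.52 ± 0.836 CPM in Chat- (n = 5 each, SD). Its value is uncertain, since reads of the far more abundant Fcgr2b from the shared stretch may be split between the genes. Fcrl1, Fcrl5 and Fcrla shared 0% of their 31-base words with any other gene, and Fcer2a shared 1.97%. Among the partners that relay or oppose Fc receptor and antigen receptor signals, 18 of 18 were listed. Their log2 fold changes lay between -0.46 and 0.23 with a median of 0.06. Of the 18, 13 were above 0, where 57.0% of all listed genes were. With limma 0 passed, against 0.00692% of all listed genes, and 0 had an unadjusted p under 0.05, against 4.51%. The adaptor gene Blnk, for example, had 307 ± 20.1 CPM in Chat+ cells, against 289 ± 17.7 CPM in Chat-, and the kinase gene Fyn 46.1 ± 8.97 and 49.6 ± 7.41 CPM (SD, n = 5 each).

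Fcrl1, the chromosome 3 neighbour of Fcrl5, had nearly equal means in the groups. It was measured in Chat+ at 241, 272, 305, 276 and 226 CPM in replicates 1 to 5, and in Chat- at 276, 275, 306, 194 and 262 CPM. The lowest library was Chat- replicate 4, and the remaining libraries of both groups fell between 226 and 306 CPM. The means were 263.9 ± 30.8 and 262.8 ± 41.5 CPM (SD, n = 5 each). The fold was 1.01 with a 95% confidence interval of 0.832 to 1.23 (limma adjusted p = 0.999), and without Chat- replicate 4 the log2 fold change was -0.09 ± 0.10 (SE). As a share of Fcrl1 CPM in the same library, Fcrl5 was 8.06% to 47.9% in Chat+ and 3.28% to 12.8% in Chat-.

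Fcrla also had nearly equal means, 404 ± 41.6 CPM in Chat+ cells, against 409.7 ± 47.4 CPM in Chat- (n = 5 each, SD). It was measured in Chat+ at 386, 366, 425, 378 and 467 CPM in replicates 1 to 5, and in Chat- at 397, 369, 366, 475 and 442 CPM. The groups covered almost the same range, 366 to 467 and 366 to 475 CPM. The fold was 0.988 with a 95% confidence interval of 0.841 to 1.16 (limma adjusted p = 0.999). Its most like gene in profile was Ap1g1, a subunit gene of a clathrin adaptor complex, with a root mean square difference of 0.03 beside a median of 0.29. For Fcrl1 the most like genes were Padi2, Dnajc8 and Psd4, and for Fcgr2b Tm6sf1, Sos2 and Rbm26, all with differences of 0.06 to 0.09. The spread of these 3 members about their own means was itself small, 0.14 to 0.23.

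Of the listed genes within 500 kb of the start sites of Fcrl5, Fcgr2b and Fcer2a, 0 passed (limma). Around Fcrl5 1 of 15 other genes had an unadjusted p under 0.05, around Fcgr2b 1 of 24 and around Fcer2a 1 of 14, where the share over all listed genes was 4.51%. These were Fcrls, Fcrlb and Zfp358, with log2 fold changes of 1.92, -1.95 and -0.57. Fcrls, a scavenger-receptor-like relative of the family, stood at 1.87 ± 1.11 CPM in Chat+ cells, against 0.521 ± 0.499 CPM in Chat- (n = 5 each, SD). The 11 neighbours of Fcrl5 of at least 10 CPM had log2 fold changes of -0.13 to 0.21. The 15 such neighbours of Fcgr2b, Fcrla included, had -0.34 to 0.26, and the 9 of Fcer2a -0.17 to 0.25.

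**Figure D3:**
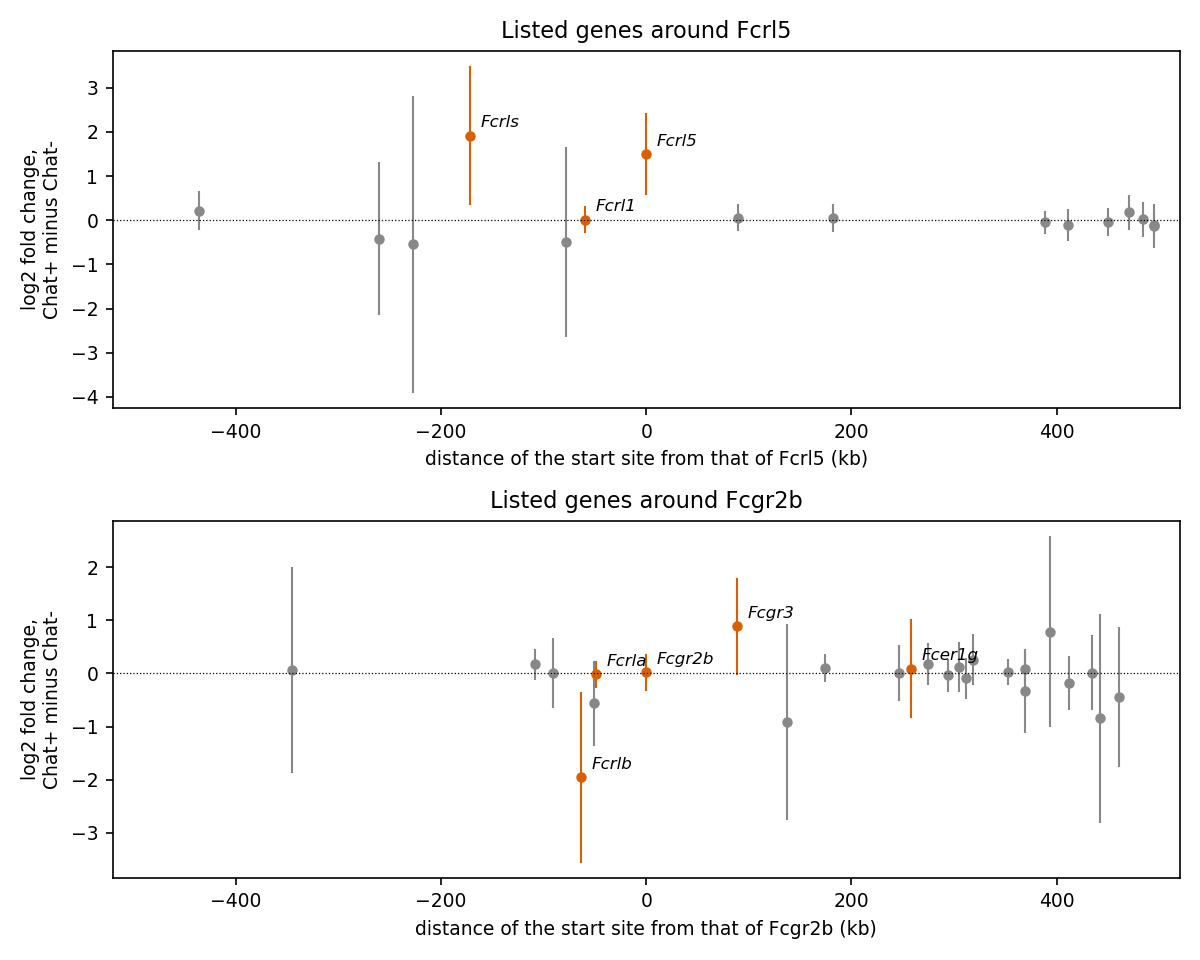
Log2 fold change with its 95% confidence interval (vertical axis) of the listed genes whose start site lies within 500 kb of that of Fcrl5 (top) or Fcgr2b (bottom), by distance in kb along the chromosome (horizontal axis), with Fc receptor family genes in orange. Fcrl5 stands at 1.51 while Fcrl1, 59.4 kb away, stands at 0.01, and Fcrla and Fcgr2b lie close to 0 at a distance of 49.0 kb.

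Levels were compared between genes per kb of the longest coding transcript. In Chat- cells the order from high to low was Fcer2a (431 ± 22.4 CPM per kb), Fcrla (244 ± 28.2), Fcrl1 (133 ± 21.0), Fcgr2b (65.5 ± 16.0) and Fcrl5 (6.06 ± 3.79), as SD with n = 5. The order was the same in Chat+ cells, with 340.2 ± 45.4, 241 ± 24.8, 133 ± 15.6, 65.6 ± 8.56 and 18.1 ± 13.3 CPM per kb. Within each group no library of a gene reached the range of the next, although in Chat+ replicate 5 Fcer2a (278.8) and Fcrla (278.4) all but met. The transcripts in use were not measured. With the median coding transcript length instead, Fcrl1 and Fcgr2b came together in Chat- cells, at 159 and 153 CPM per kb.

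**Figure D4:**
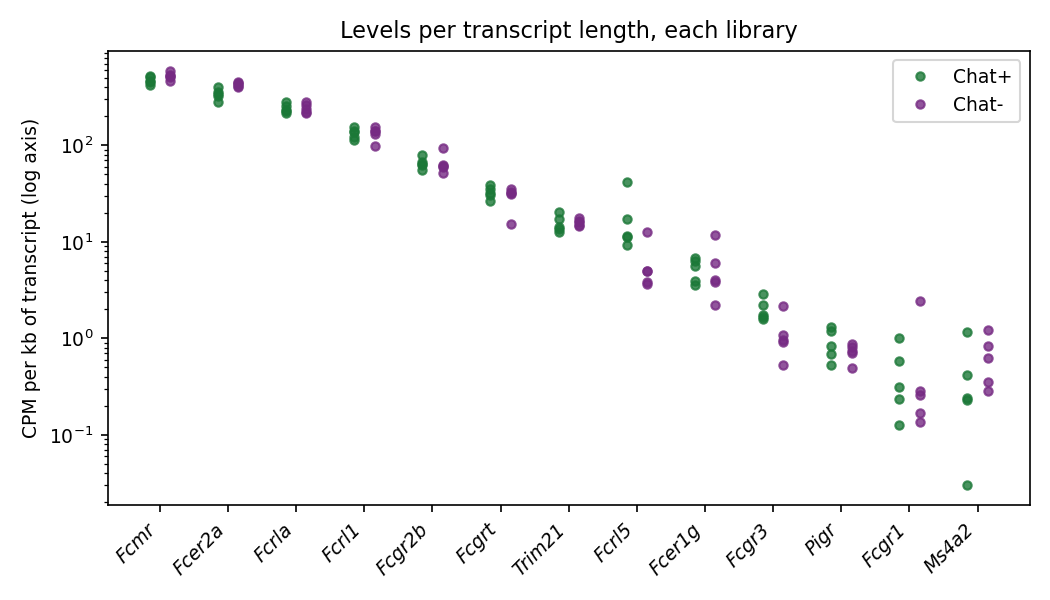
CPM per kb of the longest coding transcript (vertical log axis) of Fc receptor family genes in each of the 5 Chat+ and 5 Chat- libraries, ordered by mean. Fcmr and 4 of the 5 described genes lie above 50 CPM per kb, Fcrl5 lies between 3.69 and 41.4, and Fcrls and Fcrlb, listed at 0 in some libraries, are not drawn.

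Of the other Fc receptor genes on a list of 14, 10 were listed, and 0 of them passed (limma), against 0.00692% of all listed genes. An unadjusted p under 0.05 was found for 2 of the 10, Fcrls and Fcrlb, both low in CPM, against 4.51% of all listed genes. Their log2 fold changes went opposite ways. Over the 10 genes the log2 fold changes had a median of 0.07 beside 0.04 over all listed genes. Of the 10, 6 were above 0, where 57.0% of all listed genes were. Per kb of the longest coding transcript the IgM receptor gene Fcmr was the most abundant of all, with 472 ± 42.3 CPM per kb in Chat+ and 523.5 ± 42.4 CPM per kb in Chat-. Per kb of the median coding transcript Fcer2a stood above it, at 820.3 and 1039 CPM per kb. Without regard to length, Fcmr had 756 ± 67.7 CPM in Chat+ cells, against 838 ± 67.8 CPM in Chat-. Fcgrt, the neonatal receptor that recycles IgG, had 57.6 ± 8.28 and 51.8 ± 13.9 CPM, and Trim21, a cytosolic antibody receptor, 43.5 ± 8.96 and 44.4 ± 3.595 CPM (SD, n = 5 each). The groups overlapped for all 3.

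Receptor genes typical of other cells, and the family member Fcrlb, were near the lower end of the table. Fcer1g, the signalling chain of activating Fc receptors, had 3.61 ± 0.991 CPM in Chat+ cells, against 3.81 ± 2.53 CPM in Chat-. The high-affinity IgG receptor gene Fcgr1 had 1.17 ± 0.908 and 1.71 ± 2.61 CPM, and Ms4a2, of the high-affinity IgE receptor of mast cells and basophils, 0.998 ± 1.06 and 1.57 ± 0.896 CPM. Pigr, the receptor that carries IgA and IgM across epithelia, had 3.49 ± 1.26 and 2.78 ± 0.562 CPM. Fcrlb, the intracellular relative of Fcrla, had 0.346 ± 0.419 and 1.22 ± 0.667 CPM (SD, n = 5 each). Fcrlb and Fcrls were listed at 0 in some libraries, and the fitted fold changes of both (log2 -1.95 and 1.92) depend on the offset in the deposited values.

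**Figure D5:**
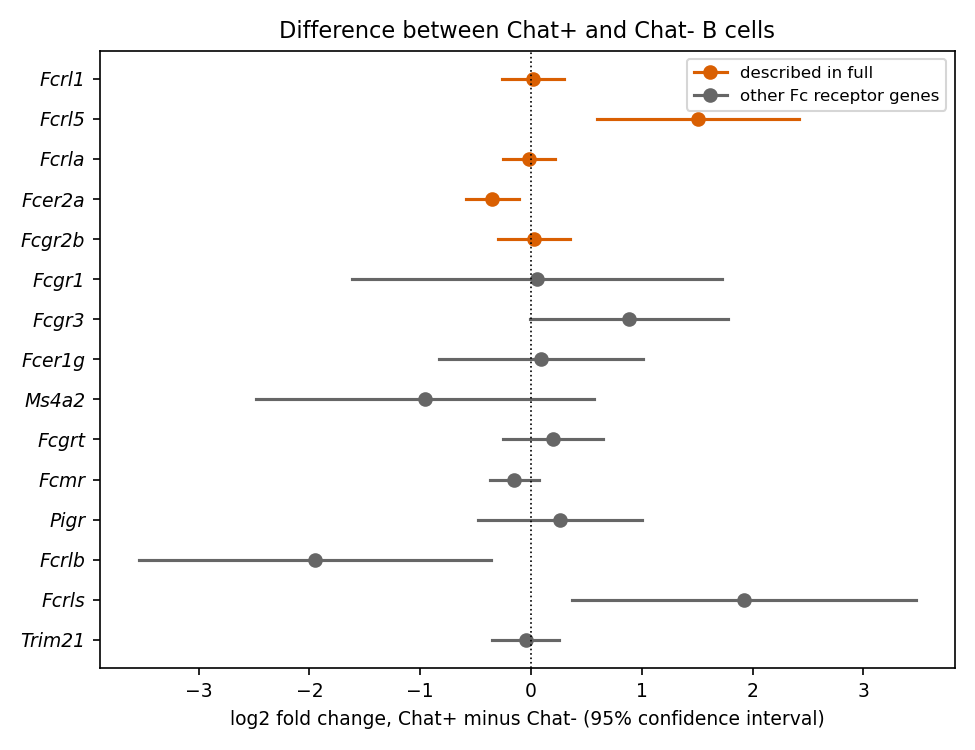
Log2 fold change, Chat+ minus Chat-, with its 95% confidence interval (horizontal axis) for the 5 described genes (orange) and 10 other Fc receptor genes (grey). Among the described genes the intervals of Fcrl5 (0.60 to 2.41) and Fcer2a (-0.59 to -0.11) leave out 0, and after adjustment over all genes none of those drawn passed.

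Fcgr2b binds IgG and CD23 binds IgE, and transcripts of heavy chain constant genes were read in the same cells. Of 8 such genes 7 were listed. The missing gene was Ighe, the heavy chain gene of IgE, so the ligand of CD23 was not read. The 7 also hold genes of other classes, such as Igha, so their counts do not describe the ligands of these receptors alone. With limma 0 passed, against 0.00692% of all listed genes. Of the 7, 5 had a log2 fold change above 0, against 57.0% of all listed genes, and 4 had an unadjusted p under 0.05, against 4.51%. Ighg2b, the heavy chain gene of an IgG that Fcgr2b binds, had 29.6 ± 10.6 CPM in Chat+ cells, against 13.9 ± 2.33 CPM in Chat-, and Ighg3, of another IgG subclass, 28.2 ± 11.5 and 3.94 ± 2.87 CPM (SD, n = 5 each). For Ighg3 every Chat+ library lay above every Chat- library, as for 1.12% of all listed genes, whereas Fcgr2b itself differed by less than its spread. Of the 5 plasma cell markers, 3 had a log2 fold change above 0 and 2 below, with a median of 0.10, where 57.0% of all listed genes were above 0. An unadjusted p under 0.05 (limma) was found for 2, Jchain and Derl3, against 4.51% of all listed genes. Jchain, which links antibody polymers, had 97.0 ± 85.6 CPM in Chat+ cells, against 22.7 ± 9.40 CPM in Chat- (n = 5 each, SD). Its groups overlapped, at 15.1 to 212.8 and 10.1 to 35.8 CPM. Derl3, of the endoplasmic reticulum, was low in both groups (4.23 ± 1.66 and 1.68 ± 0.947 CPM). It had no overlap, as for 1.12% of all listed genes with Chat+ higher. Neither passed (limma adjusted p = 0.999), and their part in the heavy chain values was not tested.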

How the data were processed

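The deposited table holds log2 CPM values for 14450 genes in 10 libraries, although it is named for normalized counts. Every library shares 1 lowest value, -3.12, and with that offset (0.115 CPM) taken off the values add up to 1000000 CPM in each. Per the submitters' processing notes, the authors used cutadapt 2.6, Salmon 0.14.2 and the genome build GRCm38.p6, and libraries came from a strand-specific kit, per the labels' protocols. For the annotation and the strand setting, what was used is not given in the sources used here. Differential RNA quality or cell mixture would enter these values unadjusted.

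The members and gene lists were chosen with earlier results of these data known. Symbols matched 14374 identifiers, and positions and transcript lengths come from GENCODE M21. The log2 values went into limma 3.58.1 (R 4.3.3) with group as the only term, a mean-variance trend, two-sided tests and Benjamini-Hochberg adjustment over all genes at 0.05, a fit also tested on simulated data. Exact permutation tests used all assignments of libraries to groups. Depth was estimated as the total that makes the most low values whole reads. Under 3 CPM 35.4% to 48.7% per library were whole within 0.001, so reads were not recovered and count models not run. No columns were left over. Besides the members, the other Fc receptor genes, up to 3 genes of smallest p per list and the 3 most like profiles per member were named. Neighbours, and library values singled out, were picked with their values in view. Neutrophil, dendritic, erythroid and stromal markers (8, 6, 6 and 7 listed) had 0 genes past the threshold in each list. With an unadjusted p under 0.05 they had 0, 1, 0 and 0, against 4.51% of all listed genes. Python 3.11.15 drew up tables and figures (matplotlib 3.10.9, numpy 2.4.6, pandas 2.3.3).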

Additional observations from a re-analysis of the deposited data

Results flagged for a closer look

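Among 30 groups of 5 libraries (15 genes, 2 groups each), 5 libraries stood far from the other 4 by Dixon's criterion, where chance marks about 1 group in 20. Fcrl5 had such a library in both groups, at 109 CPM in Chat+ replicate 5, with the other 4 at 24.6 to 45.6 CPM, and at 33.5 CPM in Chat- replicate 5, with the others at 9.69 to 13.2 CPM. The other 3 were all in Chat- replicate 4. They were Fcgr2b at 329 CPM (others 182 to 222 CPM), Fcgr1 at 6.36 CPM (others 0.355 to 0.73 CPM) and Fcgrt at 27.2 CPM (others 55.7 to 61.6 CPM).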

How the results depend on the processing

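Fcrl5 kept its direction in all 21 alternatives (log2 fold change 1.149 to 1.81, left-out libraries included) and Fcer2a in all 21 (-0.41 to -0.28, limma or permutation adjusted p from 0.058 upwards). Fcrl5 passed in 3, namely with library quality weights (1.61), with the replicate number as a block (1.51 ± 0.14, SE, limma adjusted p = 0.021) and with that block without number 4 of both groups (1.58, adjusted p = 6.8e-04). It did not pass in the others (adjusted p = 0.081 to 0.998), including, chosen after seeing the data, without number 5 of both groups (1.46, adjusted p = 0.081 and, with the block, 0.27). The labels do not say that equal numbers share an animal. With the group mean of each gene taken off, the deviations of same-numbered libraries correlated at -0.20 to 0.23 over all genes. The numbers were therefore not taken as pairs. The ratio of Fcrl5 between same-numbered libraries was 2.29 to 3.47.

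The 3 members near 0 changed sign. Fcrl1 was at -0.037 with libraries centred on the median gene, -0.099 with weights and -0.11 with the block without number 4, Fcrla at 0.023 with weights and 0.061 with that block, and Fcgr2b at -0.027 with centring. With single libraries left out they ran from -0.090 to 0.073, from -0.071 to 0.038 and from -0.056 to 0.16. Centring moved the median of all genes from 0.04 to -0.02. Over all genes, limma called 1, but 3 without the trend, 105 with weights, 6 with the block, 89 with the block without number 4, 6 without number 5 and 0 with the block without number 5 (527 at an unadjusted p under 0.05). The exact permutation test called 0 (794 unadjusted), as its smallest adjusted p is 0.56, and leaving out single libraries gave 1 to 6. The cause of these shifts was not tested.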
